A study of Mus musculus with 14 samples.

Results

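The genes described here encode proteins that build ribosomes in the nucleolus. They were chosen by symbol, as all genes named Utp, Nop, Noc, Rrp or Nol followed by a number (without Nol3, Nol4 and Nol4l, which have other functions) together with Fbl, Ncl, Npm1, Abt1, Bms1, Imp3, Imp4, Mrto4, Nip7, Rrs1, Bop1 and Pes1. The rule uses symbols and no measured value, and it gave 49 of the 56923 genes in the count table. By their known roles, 5 are core proteins of small nucleolar ribonucleoprotein particles (snoRNPs), 25 act on the small (40S) subunit, 16 on the large (60S) subunit, and Ncl, Npm1 and Rrp8 form a group of 3 nucleolar proteins with several functions or with a role outside these classes. RNA-seq counts were available from 14 libraries of mouse (ICR) embryos at the 2-cell stage, 2 libraries in each of 7 conditions and 5 embryos in each library. Early 2-cell embryos were taken at 30 h and late 2-cell embryos at 54 h after hCG, the injection that triggers ovulation.

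At both times, G+N embryos were cultured with Gne140, an inhibitor of the lactate dehydrogenases LDHA and LDHB, and with NMN, a precursor of NAD+, in medium that held sodium lactate. G+N-L embryos had both agents in medium without lactate. Late 2-cell G+N-L+A embryos had the G+N-L culture and were injected with lactyl-CoA (Lac-CoA) as zygotes. H3K18R embryos, also late 2-cell, were injected as zygotes with mRNA of H3 whose lysine 18 is changed to arginine, and the libraries labelled WT served as their control. The methods name wild-type H3 mRNA for that control and the labels give only WT, and no inhibitor is stated for either. The treatment labels of the early libraries differ from their titles (NMN is listed for G+N-L and not for G+N), the label of the G+N-L+A libraries lists CoA, and the count columns of the H3K18R libraries are headed K18A, so groups follow the titles. The methods state 3 replicates per group, and 2 libraries per group were used here. Nothing states that the libraries of a group came from separate cultures or matings, so p-values measure the spread between these libraries only.

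Ribosome production starts with the transcription of ribosomal DNA by RNA polymerase I. The long precursor is modified by snoRNPs and folded and cut within the small-subunit processome, a large assembly that holds the U3 snoRNP and the UTP proteins, while the pre-60S particle is built by a separate set of factors. In the mouse, the nucleolus precursor bodies of the zygote are not yet working nucleoli, and ribosomal RNA synthesis resumes in the course of the 2-cell stage, around the major wave of zygotic genome activation.

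Library totals ran from 20350427 to 61275465 counts, and 3 counts, the limit that a count of 0 allows, correspond to 0.0490 to 0.147 CPM (counts scaled to the size of the library). Such limits cover counting error only, since the amplified reads carry no molecular identifiers. H3c1, whose sequence the injected mRNA can share, reached 43643 and 83390 counts with H3K18R and 0 to 66 in all others. The libraries labelled WT had 4 and 3, the level of groups that were given no H3 mRNA, so H3c1 shows no injected H3 mRNA in them. The 17 markers of the 2-cell stage found in the table (of 18 listed, such as Zscan4d and Zfp352) summed to 542 to 814 CPM in the early libraries and to 3252 to 6897 CPM in the late ones. Cumulus cell markers (13 of 15 found, 4 to 10 of them at 0 in a library) summed to 19.4 to 92.9 CPM. The 16 oocyte markers (such as Zp3 and Gdf9) summed to 23336 to 24780.4 CPM in early G+N, 20757 to 21120.5 CPM in early G+N-L, 18746 to 20991 CPM in late G+N-L, 11450.3 to 16141 CPM in G+N-L+A, 14475 to 14991 CPM in late G+N and 3825 to 3865 CPM in WT, with at most 1 of the 16 at 0 in a library. The H3K18R libraries stood apart from each other, with 4179.6 CPM in library 1 and 9026 CPM in library 2. Exons of 30 of the 49 members overlapped those of another gene (4 on the same strand), for more than 20% of the exon length in Nol7, Rrs1 and Nop56, and a strand setting of the counting is not stated, so counts of these members may include a neighbour's reads. Utp14b is a retro-copy of Utp14a, and reads that both genes share may have been split between them.

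The members' share of the embryo's reads was low in early embryos and in lactate-deprived late embryos, and highest in WT. Together they took 0.318 and 0.289% of all counts in early G+N, 0.280 and 0.286% in early G+N-L and 0.284 and 0.267% in late G+N-L. The share was 0.396 and 0.449% in G+N-L+A, 0.409 and 0.451% in late G+N, 0.728 and 0.474% in H3K18R and 0.854 and 0.843% in WT. Both late G+N and both G+N-L+A libraries were therefore above both late G+N-L libraries, and the H3K18R libraries differed widely from each other, both below WT. On TMM-normalized library sizes the summed level was 3659.8 ± 222 CPM in early G+N (mean ± SD, n = 2, as for all levels given with ±), 3200.0 ± 223 CPM in early G+N-L, 2540.0 ± 64.4 CPM in late G+N-L, 3745 ± 300.5 CPM in G+N-L+A, 4201 ± 596 CPM in late G+N, 5719 ± 1883 CPM in H3K18R and 8247 ± 69.1 CPM in WT. Ordered by level, the neighbours early G+N, G+N-L+A, late G+N and H3K18R overlapped in their libraries, while late G+N-L lay below and WT above all other libraries. Scaled to library totals, early G+N (2889 to 3175 CPM) lay below all libraries of G+N-L+A (3962 to 4493 CPM) and late G+N (4092 to 4505 CPM), and late G+N-L (2666 to 2839 CPM) overlapped early G+N-L (2799 to 2857 CPM). In bulk libraries of whole embryos, fewer embryos or cells with a transcript and less of it in each cannot be told apart.

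Npm1, which encodes nucleophosmin, a histone chaperone and abundant nucleolar scaffold, made up much of the early signal. It had 1508 and 1828 CPM in the early G+N libraries, 1206 and 1429.6 CPM in late G+N, 816 and 919.7 CPM in late G+N-L and 1899.7 and 1945 CPM in WT. Its share of the members' counts was 39.5 and 52.2% in early G+N and 23.2 and 23.4% in WT, so the other members gained on it. Without Npm1 the sum was 1992 ± 448 CPM in early G+N, 1672 ± 138 CPM in late G+N-L, 2883 ± 438 CPM in late G+N and 6325 ± 36.9 CPM in WT. The snoRNP core, small-subunit and large-subunit classes followed the same order of means, with overlap between early G+N and late G+N-L in each. The snoRNP core proteins summed to 246 ± 74.1, 223 ± 8.41, 433 ± 67.8 and 917 ± 42.6 CPM in early G+N, late G+N-L, late G+N and WT. The small-subunit factors summed to 809.9 ± 214, 658 ± 103, 1219 ± 155 and 2744 ± 50.6 CPM and the large-subunit factors to 616 ± 84.8, 597 ± 7.98, 991 ± 193 and 2339 ± 11.0 CPM. Ncl, Npm1 and Rrp8 departed from this, at 1988 ± 151, 1061 ± 38.6, 1557 ± 181 and 2248 ± 35.2 CPM, with both early G+N libraries above both late G+N and both late G+N-L libraries. WT had the highest mean for 38 of the 49 members, and the lowest mean was in early G+N-L for 19, late G+N-L for 19, early G+N for 9 and G+N-L+A for 2.

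Per kilobase of exon, over the union of all annotated exons of a gene, the order of the members changed between the stages. This union was 5666 bases for Npm1, 2116 for Nop16 and 1262 for Nop10. Transcripts in the embryo can be shorter than the union, so the order between genes also depends on the annotation. In early G+N, Npm1 led with 294 ± 39.9 CPM per kb, followed by Nop10, a small core protein of box H/ACA snoRNPs, with 57.2 ± 11.7, and Nip7, which acts in pre-60S assembly, with 46.1 ± 1.40. In WT, Nop16, a pre-60S factor without counts in early G+N, reached 349.9 ± 28.4 CPM per kb, beside 339 ± 5.68 for Npm1 and 326 ± 40.7 for Nop10. The differences between these 3 levels in WT were smaller than the SD of Nop10, so the 3 genes are not ranked here.

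**Figure D1:**
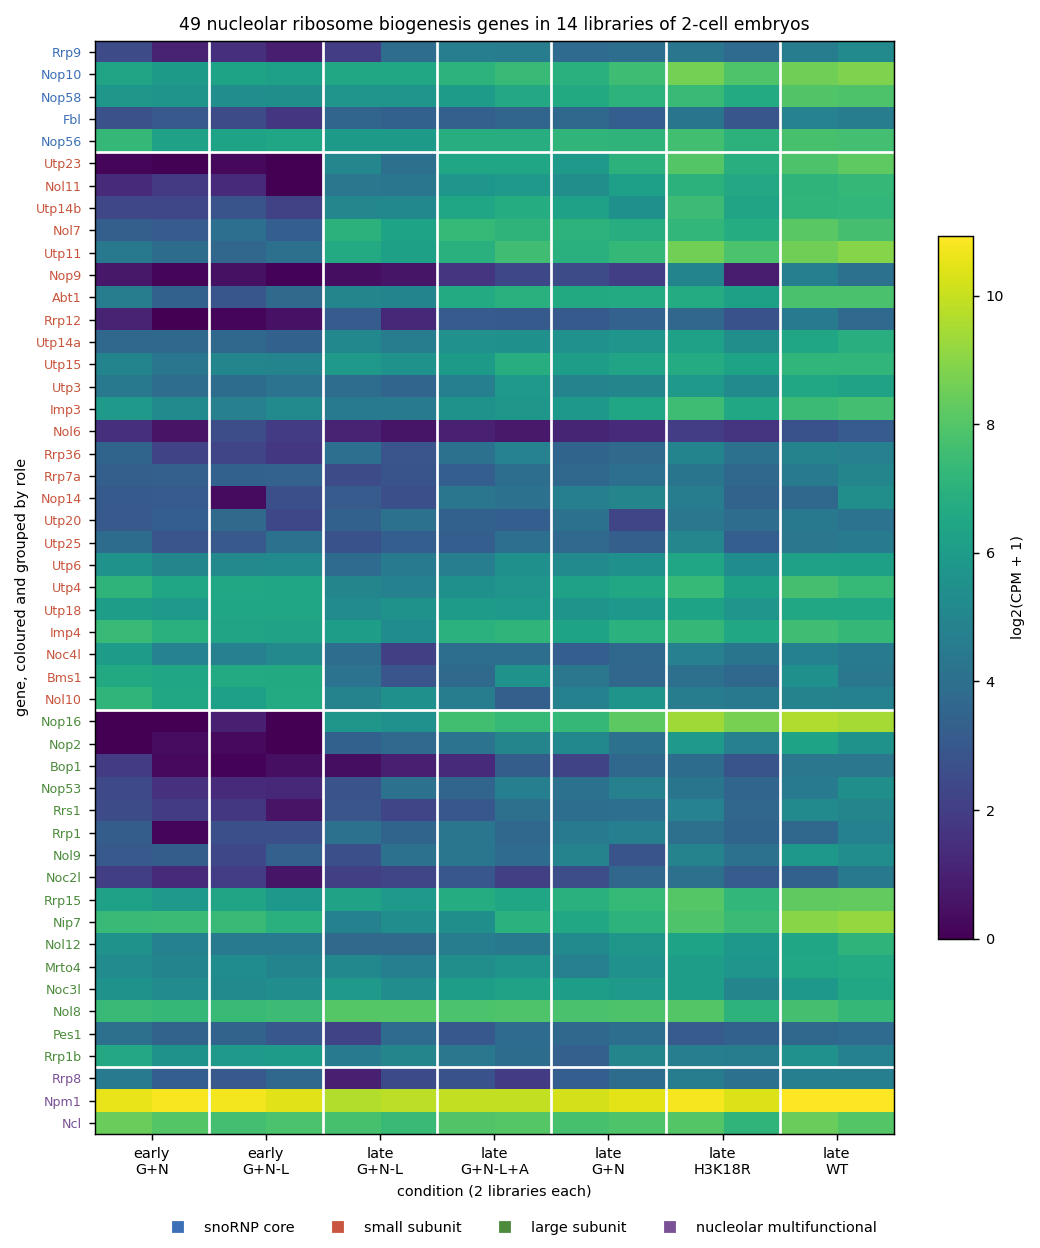
Level of each of the 49 members (rows, grouped by role and ordered by the difference between WT and early G+N) in each of the 14 libraries (columns), as log2(CPM + 1). WT holds the highest mean for 38 members, and Bms1 and Nol10 are the members that are brighter in early G+N than in WT by 1 or more on this scale.

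The comparison of late with early 2-cell G+N embryos shows which members change in the course of this stage under inhibitor culture with lactate. At an adjusted p under 0.05 (edgeR's quasi-likelihood test, two-sided, on these 4 libraries, Benjamini-Hochberg adjusted over the 19443 genes tested), 11 of 49 members rose and 2 fell. Over all genes tested, 8.18% rose and 5.47% fell. The members that rose were Utp11, Utp14a, Utp14b, Utp15, Utp23, Nol7, Nol11 and Abt1 of the small subunit and Nop2, Nop16 and Nop53 of the large subunit, and those that fell were Bms1 and Noc4l. Among all members, 36 had a log2 fold change above 0 (51.8% of all genes) and the median was 0.69, against 0.081 over all genes. A looser criterion takes genes past 0.5 in log2 fold change whose p before adjustment is under 0.05, and 18 members were higher and 4 lower by it, against 19.8% and 14.6% of all genes. The groups did not overlap for 28 members that were higher late (35.8% of all genes) and 8 that were lower (28.9%). Without either late G+N library, fewer passed the adjusted threshold, among members and among all genes. The members' median was 0.75 without late G+N library 1 and 0.68 without library 2, against -0.075 and -0.10 over all genes. DESeq2 called 19 members higher and 4 lower, against 18.6% and 11.9% of all genes.

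Nop16 (chromosome 13, 54731998 to 54738678, GRCm39, the build of the count table also known as mm39) had 0 and 0 counts in early G+N and 5558 and 12501 counts, or 153 and 289 CPM, in late G+N. Taking 3 counts per library as the limit, it was at least 3467-fold higher in late embryos (adjusted p = 0.00603, edgeR). It was near absence in all 4 early libraries, with 38 and 0 counts in early G+N-L. Utp23 (chr15:51740760-51748010), a PIN-domain protein of the small-subunit processome, had 8 and 2 counts in early G+N and 2065 and 5517 in late G+N, which is 56.7 and 127 CPM in the late libraries (adjusted p = 0.00617, edgeR). Nop2 (chr6:125108816-125121717), a methyltransferase that modifies a cytosine of 28S rRNA, had 0 and 12 counts in early G+N and 1206 and 696 in late G+N (adjusted p = 0.0403, edgeR). For these 3 genes the fitted fold depends on the few early counts and is not given. All were at or near 0 in both early conditions and present in all 10 late libraries.

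Nol11 (chr11:107056802-107080214), a subunit of the UTP-A complex that joins rDNA transcription with early processing, had 1.49 and 2.67 CPM in early G+N and 41.5 and 70.0 CPM in late G+N, a log2 fold change of 4.63 ± 0.59 (± SE, 24.8-fold, adjusted p = 0.0128, edgeR). Nol7 (chr13:43551835-43561177), a small-subunit factor that shares 53.7% of its exon length with Ranbp9, went from 8.91 and 7.84 to 134 and 110.1 CPM (3.79 ± 0.32, adjusted p = 0.00617, edgeR). Utp14b (chr1:78635537-78649229), the retro-copy known for its need in spermatogenesis, went from 4.06 and 4.08 to 76.0 and 43.1 CPM (3.79 ± 0.47). In each of these genes the late libraries lay well above the early ones. Its parent Utp14a, whose yeast counterpart activates a helicase that frees the U3 RNA, went from 11.5 and 11.4 to 45.1 and 52.7 CPM (2.01 ± 0.35). Abt1 (chr13:23602531-23608068), the counterpart of yeast Esf2, which acts with that machinery, went from 22.8 and 9.43 to 99.6 and 100.5 CPM (2.60 ± 0.44, adjusted p = 0.0235, edgeR). Of the rest that rose, Utp11 (chr4:124571174-124587393) gave 2.95 ± 0.31, Utp15, another UTP-A subunit, 1.58 ± 0.33, and Nop53, which brings the exosome to the pre-60S particle, 2.70 ± 0.61.

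Bms1 (chr6:118360342-118396775), a GTPase of the small-subunit processome, went the other way, from 99.3 and 88.0 CPM in early G+N to 19.0 and 11.2 CPM in late G+N (-2.70 ± 0.39, adjusted p = 0.0158, edgeR). Noc4l, a partner of Nop14 in the same assembly, fell from 64.6 and 27.9 to 8.64 and 12 CPM (-2.20 ± 0.49, adjusted p = 0.0435, edgeR). Nol10, the counterpart of yeast Enp2, had 142 and 88.9 CPM early and 26.6 and 49 CPM late (-1.67 ± 0.40) and did not pass after adjustment (adjusted p = 0.0512, edgeR). For these 3 genes the early libraries lay above the late ones without overlap.

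**Figure D2:**
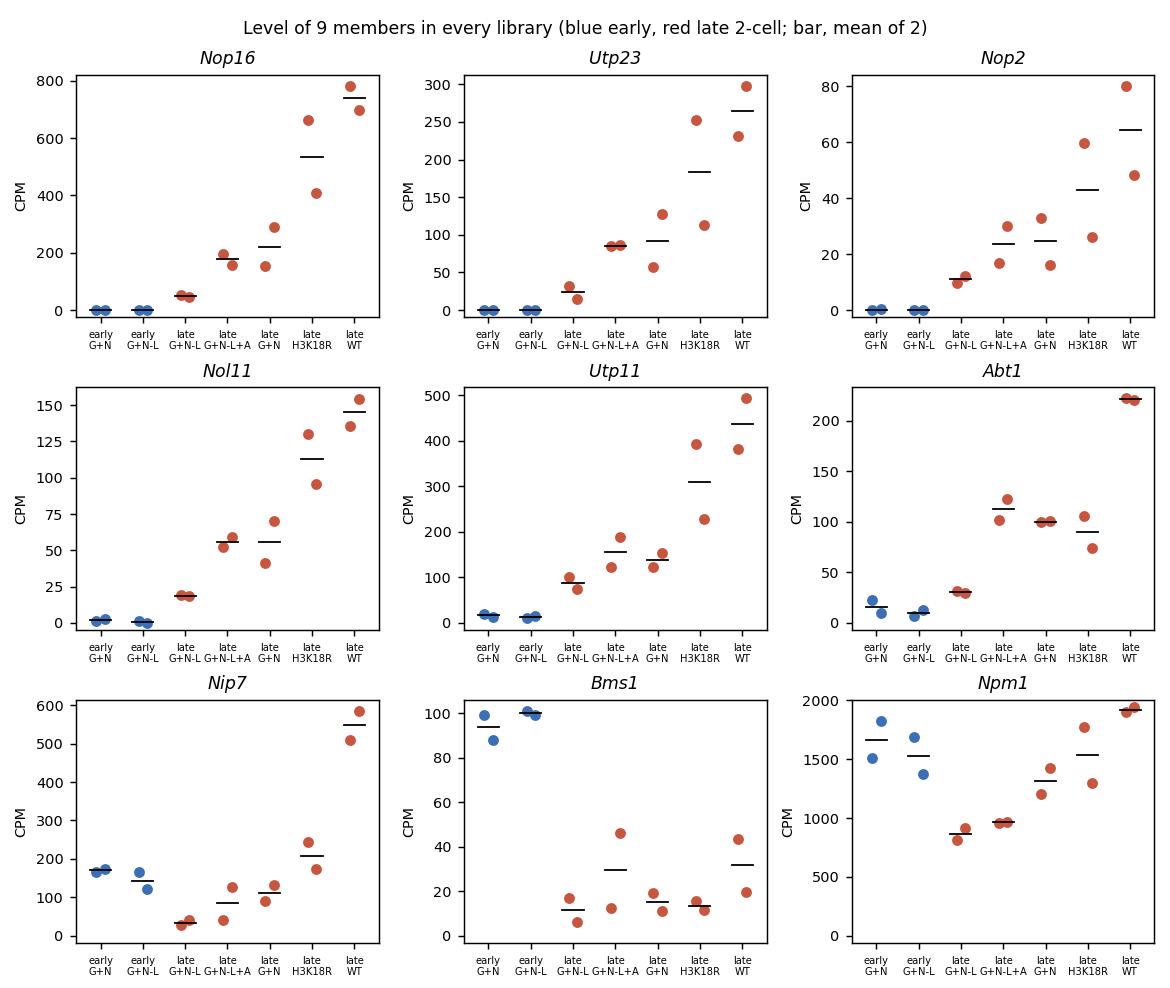
CPM on TMM-normalized library sizes of Nop16, Utp23, Nop2, Nol11, Utp11, Abt1, Nip7, Bms1 and Npm1 in each library, with early conditions in blue and late ones in red and a bar at the mean of 2 libraries. Nop16, Utp23 and Nop2 sit at or near 0 in the early libraries, and Bms1 is highest there.

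No core snoRNP protein and none of the 3 multifunctional proteins passed the adjusted threshold in late against early G+N. The log2 fold changes of the core proteins were 0.55 ± 0.58 for Fbl, 0.26 ± 0.34 for Nop56, 1.09 ± 0.29 for Nop58, 1.02 ± 0.31 for Nop10 and 2.27 ± 0.81 for Rrp9. Fbl is the 2′-O-methyltransferase of box C/D snoRNPs, Nop56 and Nop58 are its partners, and Rrp9 binds U3. Ncl, encoding nucleolin, and Npm1 gave -0.48 ± 0.24 and -0.43 ± 0.27, both below 0. In the small-subunit group, Utp4 of the UTP-A complex, the scaffold Utp20, Nop14 and Nol6 gave -0.48 ± 0.30 for Utp4, 0.19 ± 0.80 for Utp20, 1.73 ± 0.43 for Nop14 and 0.20 ± 1.22 for Nol6. Imp3 and Imp4, which bind U3 as part of the Mpp10 complex, and the export factor Rrp12 gave 0.51 ± 0.35 for Imp3, -0.57 ± 0.31 for Imp4 and 4.01 ± 1.84 for Rrp12. In the large-subunit group, Noc2l, the 5S particle loader Rrs1, Nip7 and Mrto4, the placeholder of the stalk protein P0, gave 1.78 ± 0.79 for Noc2l, 1.93 ± 0.55 for Rrs1, -0.70 ± 0.30 for Nip7 and 0.013 ± 0.40 for Mrto4. Bop1 and Pes1, partners in the PeBoW complex, gave 2.36 ± 1.30 for Bop1 and -0.0024 ± 0.46 for Pes1.

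Promoters are shown for members with the smallest p in late against early G+N, as far as the RefSeq promoter table (GRCm38.p6, 250 bases before to 50 after each start) holds them, which gave Nop16 and Nol7. The promoters of Nop2, Nol11 and Utp14b are added, chosen after the values were seen, since they are the members that rose and hold an E-box in this window. Each window was found once in GRCm39, whose coordinates are given. Capitals mark matches to 4 motifs on either strand: the E-box CACGTG, the ETS motif CCGGAAG, the GC box GGGCGG and the TATA box TATAAA. No marked matches overlap. The Nop16 and Utp14b windows lie within their genes as GENCODE annotates them, downstream of the first annotated base.
Nop16 (chr13:54737838-54738137, minus strand): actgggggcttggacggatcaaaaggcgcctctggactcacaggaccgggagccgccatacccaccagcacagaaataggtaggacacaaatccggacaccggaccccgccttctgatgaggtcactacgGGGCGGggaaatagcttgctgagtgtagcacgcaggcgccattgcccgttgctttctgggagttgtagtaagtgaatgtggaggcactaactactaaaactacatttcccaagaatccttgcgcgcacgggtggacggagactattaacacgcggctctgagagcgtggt
Nol7 (chr13:43551602-43551901, plus strand): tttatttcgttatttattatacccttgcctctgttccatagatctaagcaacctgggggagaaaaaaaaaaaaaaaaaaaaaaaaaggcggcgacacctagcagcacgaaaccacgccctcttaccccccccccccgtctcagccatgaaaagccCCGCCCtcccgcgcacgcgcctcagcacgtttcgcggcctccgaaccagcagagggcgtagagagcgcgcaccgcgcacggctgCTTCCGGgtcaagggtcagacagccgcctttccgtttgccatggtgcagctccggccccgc
Nop2 (chr6:125108596-125108895, plus strand): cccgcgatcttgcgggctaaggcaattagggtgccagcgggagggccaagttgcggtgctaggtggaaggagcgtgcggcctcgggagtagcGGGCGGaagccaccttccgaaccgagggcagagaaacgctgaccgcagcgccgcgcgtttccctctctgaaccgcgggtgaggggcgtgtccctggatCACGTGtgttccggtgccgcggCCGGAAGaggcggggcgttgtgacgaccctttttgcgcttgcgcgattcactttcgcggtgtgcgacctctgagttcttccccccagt
Nol11 (chr11:107080158-107080457, minus strand): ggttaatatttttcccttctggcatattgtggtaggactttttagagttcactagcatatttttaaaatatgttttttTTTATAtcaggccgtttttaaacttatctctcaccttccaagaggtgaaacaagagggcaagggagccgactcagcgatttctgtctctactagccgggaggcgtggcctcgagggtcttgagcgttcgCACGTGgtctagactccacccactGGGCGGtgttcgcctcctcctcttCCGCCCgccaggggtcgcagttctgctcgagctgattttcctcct
Utp14b (chr1:78635907-78636206, plus strand): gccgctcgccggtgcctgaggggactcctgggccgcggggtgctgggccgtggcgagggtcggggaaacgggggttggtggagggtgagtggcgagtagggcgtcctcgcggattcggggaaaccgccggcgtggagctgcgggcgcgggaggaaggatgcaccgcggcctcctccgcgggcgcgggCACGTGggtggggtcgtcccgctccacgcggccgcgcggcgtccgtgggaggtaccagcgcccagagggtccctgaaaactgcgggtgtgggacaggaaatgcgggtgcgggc

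The table held 47 windows of 40 members, and Bop1, Fbl, Nol6, Nop53, Rrp12, Rrs1, Utp11, Utp23 and Utp6 had none. An E-box, the site of Myc and related factors, was in 25.5% of member windows (exact 95% binomial interval 13.9 to 40.3%), against 7.15% of all 32851 windows and 9.19% of the 15639 windows of genes tested in late against early G+N. The ETS motif was in 31.9% of member windows (interval 19.1 to 47.1%), against 8.86% and 14.6%. The GC box was in 66.0% (interval 50.7 to 79.1%), against 35.7% and 53.3%, the latter within the interval. The TATA box was in 8.51% (interval 2.37 to 20.4%), against 13.6% and 9.34%. The NRF1 core GCATGCGC was searched too and found in 0 of 47 windows, which allows a share of up to 7.55%, against 2.71% and 4.5%. Of the 8 risen members with a window, 3 held an E-box, 2 an ETS motif and 7 a GC box. Windows of 1 gene can overlap, the intervals cover counting error only, and a match describes these letters and not bound factors.

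In the G+N-L culture, late against early embryos, the members moved in both directions. Of 49 members, 6 rose and 6 fell at the adjusted threshold (edgeR, with 5.97% and 5.87% of all genes), and the median was 0.33, against 0.15 over all genes. Scaled to library totals in place of TMM, 10 rose and 3 fell (9.78% and 3.68% of all genes), and the members' median was 0.69. That scaling raises the median of all genes from 0.15 to 0.51 here, from 0.081 to 0.46 in G+N and from -0.0091 to 0.099 in G+N-L+A against G+N-L. The members that rose were Nop16, Utp23, Nop2, Utp11, Utp14b and Nol7. Those that fell were Utp4, Utp18, Nip7, Bms1, Rrp1b and Npm1. DESeq2 called 14 higher and 9 lower, against 16.7% and 11.2% of all genes. Without any 1 of these libraries, fewer passed the adjusted threshold, among members and among all genes. The members' median was 0.55 without late G+N-L library 1 and 0.26 without library 2, against 0.14 and 0.15 over all genes. It was 0.19 without early G+N-L library 1 and 0.15 without its library 2, against 0.54 and 0.38 over all genes.

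Nop16 had 53.3 and 44.4 CPM in late G+N-L, and Utp23 had 32.0 and 15.2 CPM from 7 and 0 counts in early G+N-L. Utp11 went from 11.2 and 15.2 to 100.1 and 73.8 CPM (2.64 ± 0.32, adjusted p = 0.0131, edgeR) and Nol7 from 14.9 and 8.66 to 129 and 80.3 CPM (3.09 ± 0.40, adjusted p = 0.0147, edgeR). These genes were thus above their early level in deprived embryos also. Utp4 (chr8:107619814-107649965) fell from 92.6 and 85.9 to 31.4 and 26.7 CPM (-1.69 ± 0.21, adjusted p = 0.0144, edgeR). Nip7 (chr8:107777399-107787563) fell from 166 and 121 to 27.1 and 40.5 CPM (-2.15 ± 0.28, adjusted p = 0.0152, edgeR) and Bms1 from 101 and 99.3 to 16.9 and 6.35 CPM (-3.17 ± 0.52, adjusted p = 0.0253, edgeR). The other fits gave 1.47 ± 0.61 for Fbl, -0.52 ± 0.19 for Nop56, 0.24 ± 0.22 for Nop58, 0.22 ± 0.18 for Nop10 and 2.56 ± 1.0 for Rrp9 for the snoRNP core. The small-subunit members gave 1.34 ± 0.37 for Utp14a, 2.73 ± 0.42 for Utp14b, 0.53 ± 0.66 for Utp20, 1.15 ± 1.37 for Nop14, -1.88 ± 0.74 for Noc4l and -2.31 ± 1.02 for Nol6, of which Utp14b passed the adjusted threshold. Noc4l, which fell in G+N, was below 0 here too without passing it. The U3 and export factors with Abt1 gave -0.58 ± 0.32 for Imp3, -0.68 ± 0.31 for Imp4, 4.02 ± 1.5 for Rrp12 and 1.57 ± 0.45 for Abt1. The large-subunit members gave 0.96 ± 1.09 for Noc2l, 1.78 ± 1.03 for Rrs1, -0.29 ± 0.29 for Mrto4, 1.39 ± 1.49 for Bop1 and -0.089 ± 0.72 for Pes1. Nop2, with 8 and 0 counts in early G+N-L, had 9.57 and 12.3 CPM in the late libraries. Ncl and Npm1 gave -0.26 ± 0.22 and -0.89 ± 0.15, the latter past the adjusted threshold.

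Late G+N-L was compared with late G+N to see the effect of lactate in the medium when lactate dehydrogenase is inhibited. Most members were lower without lactate, by a median log2 fold change of -0.81 over 49 members, against -0.019 over all 19481 genes tested. None passed an adjusted p under 0.05 in edgeR, nor did any other gene (0%). An unadjusted p under 0.05 (edgeR) was reached by 20 members and by 2332 of the 19481 genes. DESeq2 called 13 members, all lower (with 3.19% of all genes lower and 1.61% higher). The looser criterion gave 20 lower and 0 higher, against 7.63% and 4.23% of all genes. The log2 fold change was below 0 for 45 members (51% of all genes). The groups did not overlap in 32 members with less in G+N-L (24.9% of all genes) and in 1 with more (18.6%). The members' median was -0.60 without late G+N library 2 and -1.06 without late G+N-L library 1, against 0.15 and -0.17 over all genes. The oocyte markers moved with this difference, at 18746 to 20991 CPM in G+N-L and 14475 to 14991 CPM in G+N, and their part in the result was not tested. The smallest exact permutation p for 2 against 2 libraries is 0.333, so no exact test of a single value could pass.

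Abt1 had 31.4 and 29.9 CPM in late G+N-L and 99.6 and 100.5 CPM in late G+N, a log2 fold change of -1.66 ± 0.23 (3.16-fold lower, edgeR unadjusted p = 0.000581, adjusted p = 0.311). Nop16 had 53.3 and 44.4 CPM against 153 and 289 CPM (-2.11 ± 0.34, 4.32-fold lower, edgeR unadjusted p = 0.00117). Utp4 had 31.4 and 26.7 CPM against 74.6 and 93.9 CPM (-1.48 ± 0.27, 2.80-fold lower, edgeR unadjusted p = 0.00188). In each, the libraries of the groups did not overlap. DESeq2 gave adjusted p-values of 5.77e-06 for Abt1, 1e-06 for Nop16 and 0.000744 for Utp4.

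By role, 3 of 5 snoRNP core proteins, 10 of 25 small-subunit factors, 6 of 16 large-subunit factors and 1 of the other 3 met the looser criterion as lower. The snoRNP core gave 0.060 ± 0.48 for Fbl, -1.15 ± 0.21 for Nop56, -1.12 ± 0.25 for Nop58, -0.67 ± 0.26 for Nop10 and -0.65 ± 0.77 for Rrp9, so that Nop56, Nop58 and Nop10 met it and Fbl was close to 0. Nop58 had 51.2 and 51.0 CPM in G+N-L and 97.3 and 134 CPM in G+N. Among small-subunit factors the values were -0.74 ± 0.33 for Utp14a, -0.83 ± 0.37 for Utp14b, 0.39 ± 0.78 for Utp20, -1.99 ± 0.42 for Nop14, -0.21 ± 0.78 for Noc4l and -0.67 ± 1.30 for Nol6. The U3 and export factors gave -1.62 ± 0.30 for Imp3, -0.90 ± 0.37 for Imp4 and -0.81 ± 0.92 for Rrp12, with Imp3 at 22.1 and 22.0 CPM in G+N-L and 56.4 and 84.6 CPM in G+N. Bms1, low in both groups, gave -0.34 ± 0.64. The large-subunit factors gave -1.14 ± 0.51 for Nop2, -1.14 ± 0.66 for Noc2l, -1.47 ± 0.51 for Rrs1, -1.67 ± 0.32 for Nip7, -0.23 ± 0.38 for Mrto4, -3.58 ± 1.03 for Bop1 and -0.62 ± 0.68 for Pes1. Of these, Rrs1, Nip7 and Bop1 met the criterion. Bop1 rested on low levels (0.313 and 0.918 against 3.79 and 11.6 CPM), whereas Nip7 had 27.1 and 40.5 against 89.6 and 133 CPM. Ncl gave -0.21 ± 0.23 and Npm1 -0.55 ± 0.17, and Npm1 met the criterion with 816 and 919.7 against 1206 and 1429.6 CPM. The other members lay between -3.14 (Nop9, at 0.313 and 0.551 against 4.75 and 3.12 CPM) and 0.49 (Rrp1b).

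**Figure D3:**
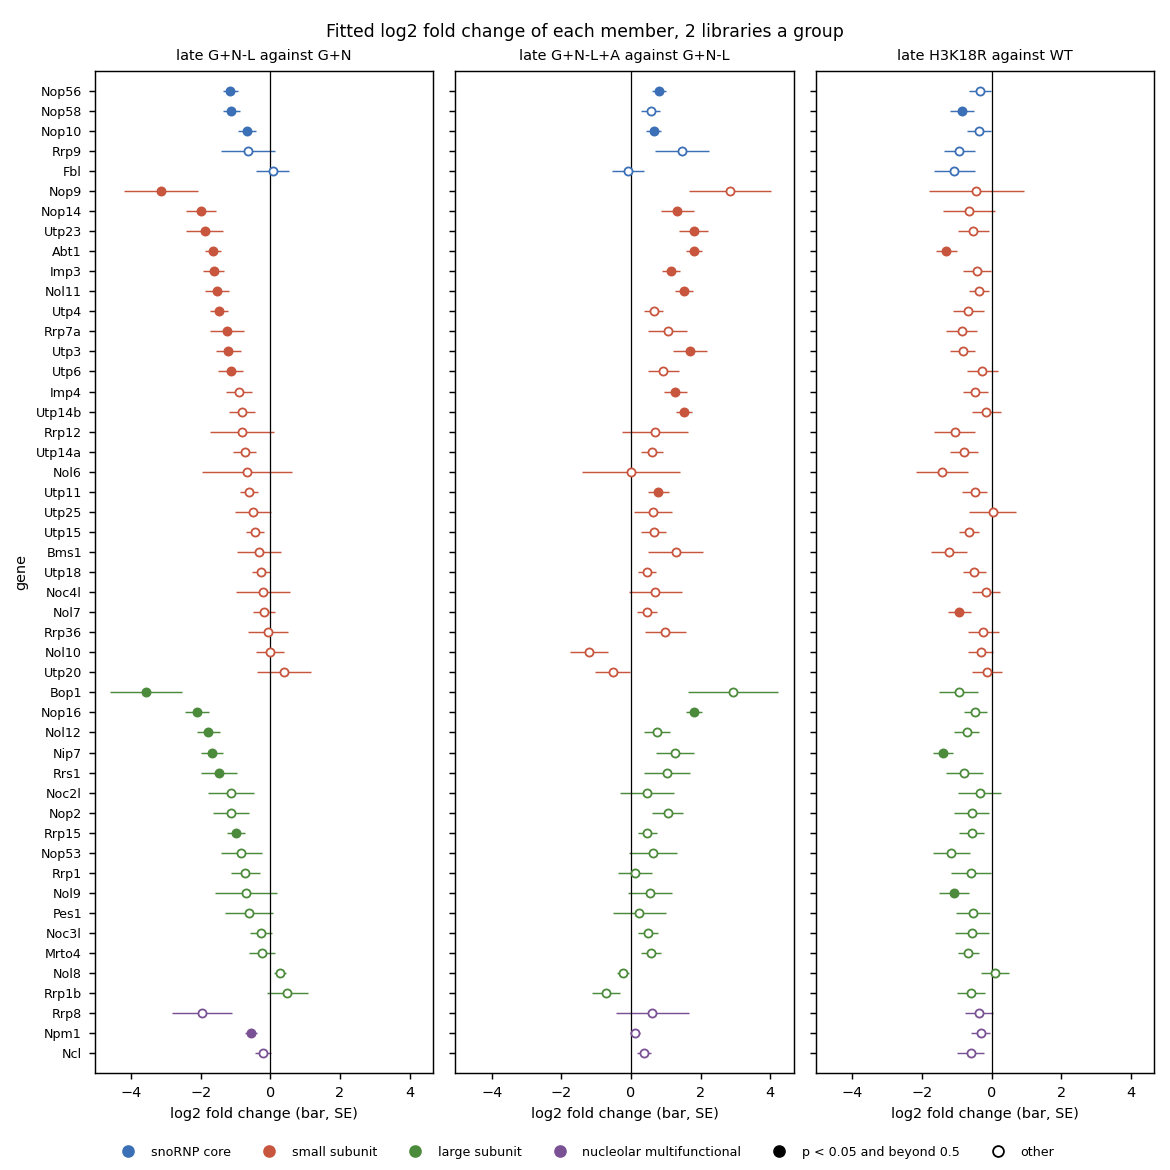
Fitted log2 fold change ± SE of each member in late G+N-L against G+N, G+N-L+A against G+N-L and H3K18R against WT, with filled points for members that met the looser criterion. Filled points number 20 below 0 in the first comparison, 12 above 0 in the second, which shares the G+N-L libraries, and 5 below 0 in the third.

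Members were sorted by the difference in log2(CPM + 1) between WT and early G+N, libraries that do not enter the lactate comparison. Stage, inhibitor culture and any mRNA injection differ together between these groups, so this is not a difference of stage alone. Whether the groups came from the same experiment is not stated. By it 34 members were higher by 1 or more, and by late minus early G+N 22 were. Of 34 members higher in WT by 1 or more, 32 had a log2 fold change below 0 in late G+N-L against G+N, with a median of -0.91. Of all 5381 genes in that class, 72.6% were below 0 and the median was -0.56. Among 13 members within 1, 11 were below 0 with a median of -0.55, against 49.2% and 0.014 for the 8795 genes in that class. The class lower in WT by 1 or more held only Bms1 and Nol10, at -0.34 ± 0.64 and -0.010 ± 0.40. The last 2 classes hold fewer than 20 members and give weak medians. In G+N-L+A against G+N-L (Lac-CoA injection) 32 of the same 34 members were above 0 with a median of 0.76, against 76.3% and 0.60 for the 5321 genes in that class.

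**Figure D4:**
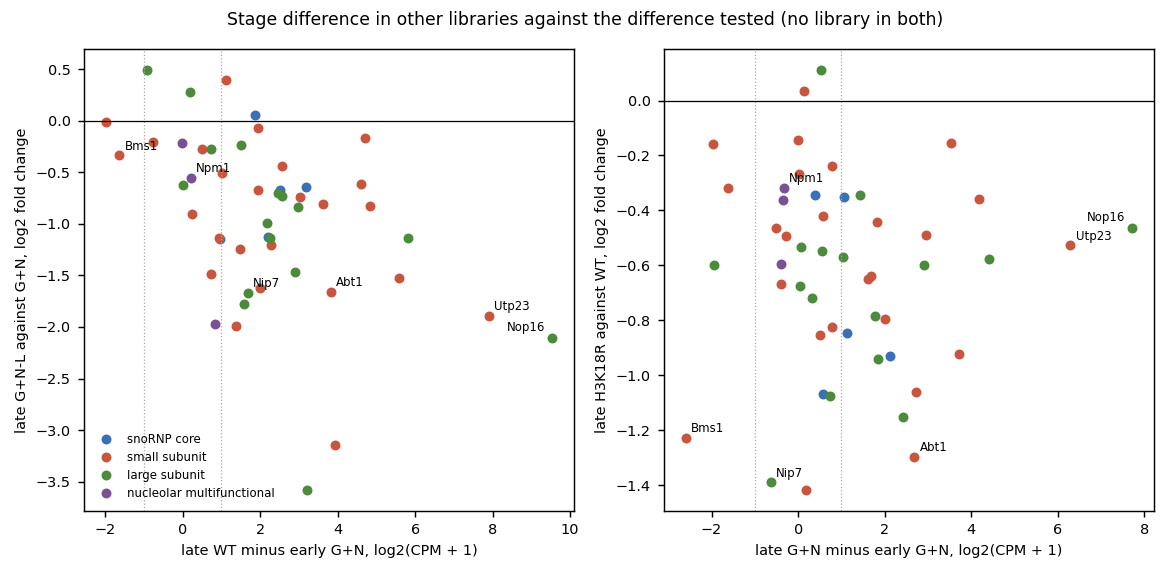
Difference between late and early libraries outside each comparison (x axis, log2(CPM + 1)) against the fitted log2 fold change (y axis) of each member in late G+N-L against G+N (by WT minus early G+N) and in H3K18R against WT (by late minus early G+N), with dotted lines at -1 and 1. WT and early G+N differ in culture and any mRNA injection as well as in stage. Of the members right of 1, 32 of 34 lie below 0 in the first panel and 22 of 22 in the second.

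At the early stage few members met either threshold. In early G+N-L against G+N, 46 members were tested (Nop16, Utp23 and Nop2 had too few counts). EdgeR called 0 of them, as of all genes (0%), and DESeq2 called 0. An unadjusted p under 0.05 (edgeR) was reached by 2 members and by 784 of 17343 genes. By the looser criterion, Utp18, a WD-repeat protein of the processome, was higher (84.4 and 86.1 against 69.6 and 59.7 CPM, 0.53 ± 0.21), and Imp4 was lower (83.1 and 77.9 against 169 and 122 CPM, -0.71 ± 0.21). The criterion was met by 1.82% of all genes as higher and 2.69% as lower. The log2 fold change was below 0 for 30 of 46 members (50.5% of all genes), the median was -0.20 and the all-gene median -0.006. Without early G+N library 1 the median of the members was 0.092, against 0.094 over all genes. Without its library 2 it was -0.41, against -0.00047 over all genes. Without early G+N-L library 1 or 2 it was -0.091 and -0.24, against -0.15 and -0.096 over all genes. The snoRNP core gave -0.77 ± 0.61 for Fbl, -0.28 ± 0.32 for Nop56, -0.20 ± 0.24 for Nop58, 0.20 ± 0.21 for Nop10 and -0.86 ± 1.06 for Rrp9. The small-subunit factors gave -0.19 ± 0.24 for Utp4, 0.019 ± 0.38 for Utp14a, 0.32 ± 0.59 for Utp14b, 0.14 ± 0.61 for Utp20, -1.31 ± 1.28 for Nop14, -0.45 ± 0.41 for Noc4l and 1.92 ± 0.96 for Nol6. Further small-subunit values were -0.45 ± 0.34 for Imp3, -0.70 ± 2.44 for Rrp12, -0.54 ± 0.57 for Abt1 and 0.23 ± 0.20 for Bms1. The widest errors among them belonged to Rrp12 and Nop14, which varied widely between replicates. The large-subunit factors gave -0.27 ± 1.11 for Noc2l, -1.26 ± 0.99 for Rrs1, -0.14 ± 0.22 for Nip7, 0.14 ± 0.26 for Mrto4, -2.53 ± 1.83 for Bop1 and -0.46 ± 0.42 for Pes1, and Ncl and Npm1 gave -0.35 ± 0.21 and -0.018 ± 0.22. Utp18 and Imp4 apart, no member met either threshold.

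The interaction term tests whether the lactate difference itself changed between the stages, and below 0 means that it was more negative in late embryos. EdgeR called 0 of 49 members (0% of all genes), and DESeq2 called 1 lower (0.713% of all genes). An unadjusted p under 0.05 (edgeR) was reached by 8 members and by 1683 of 22287 genes. Below 0 were 39 members (48% of all genes), with a median of -0.77 against 0.058. As lower, 8 members met the looser criterion (3.98% of all genes): Nop16, Nip7, Utp4, Rrp15, Nop58, Nol12, Nop10 and Imp3. Nip7 gave -1.49 ± 0.41 (edgeR unadjusted p = 0.00649, adjusted p = 0.616) and Utp4 -1.26 ± 0.36 (unadjusted p = 0.00818, adjusted p = 0.637, edgeR). The values of Nop16 and Nop2 rest on almost no early counts and are not given. The snoRNP core gave 0.88 ± 0.83 for Fbl, -0.83 ± 0.41 for Nop56, -0.89 ± 0.36 for Nop58, -0.84 ± 0.36 for Nop10 and 0.24 ± 1.29 for Rrp9. The small-subunit factors gave -0.72 ± 0.49 for Utp14a, -1.10 ± 0.58 for Utp14b, 0.31 ± 1.10 for Utp20, -0.65 ± 1.49 for Nop14, 0.27 ± 0.92 for Noc4l and -2.55 ± 1.62 for Nol6. Further small-subunit values were -1.15 ± 0.49 for Imp3, -0.16 ± 0.46 for Imp4, -0.043 ± 2.80 for Rrp12, -1.08 ± 0.64 for Abt1 and -0.52 ± 0.65 for Bms1. Of the panel of named small-subunit factors, Imp3 and Utp4 met the looser criterion. The large-subunit factors gave -0.84 ± 1.33 for Noc2l, -0.18 ± 1.10 for Rrs1, -0.34 ± 0.50 for Mrto4, -1.02 ± 2.03 for Bop1 and -0.13 ± 0.88 for Pes1, all below 0. Ncl and Npm1 gave 0.17 ± 0.33 and -0.50 ± 0.30. Leaving out 1 library at a time, the members' median lay between -0.87, without late G+N-L library 2, and -0.61, without early G+N library 2. Over all genes these fits gave -0.091 and 0.088.

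G+N-L+A was compared with G+N-L to see what changes with Lac-CoA injection in embryos without lactate. No mock injection is stated for G+N-L or G+N, so the injection itself and Lac-CoA cannot be told apart. Most members were higher with Lac-CoA, with a median log2 fold change of 0.66 over 49 members, against -0.0091 over all genes. EdgeR called 0 members at an adjusted p under 0.05 (0% of all genes), and DESeq2 called 9, all higher (with 3.5% of all genes higher and 2.69% lower). An unadjusted p under 0.05 (edgeR) was reached by 12 members and by 2609 of 19610 genes. The looser criterion gave 12 members higher and 0 lower, against 6.89% and 6.29% of all genes. The log2 fold change was above 0 for 44 members (49.6% of all genes) and below 0 for 5 (50.4%), and both G+N-L+A libraries lay above both G+N-L libraries in 34 (24.8%). The members' median was 0.57 without G+N-L+A library 2 and 0.80 without library 1, against -0.13 and -0.18 over all genes. The oocyte markers summed to 11450.3 to 16141 CPM with Lac-CoA and 18746 to 20991 CPM without it, and the 2-cell markers to 6248 to 6897 CPM with it, 3903 to 4626 CPM without it and 3962 to 4004 CPM in late G+N. The part of these markers in the result was not tested. The comparison shares the G+N-L libraries with the lactate comparison above, so opposite signs in both are not independent.

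Abt1 had 102 and 123 CPM in G+N-L+A, from 31.4 and 29.9 CPM in G+N-L (1.82 ± 0.23, edgeR unadjusted p = 0.000400, adjusted p = 0.294). Nop16 had 196 and 158 CPM, from 53.3 and 44.4 (1.81 ± 0.24), and Utp14b had 87.7 and 107 CPM, from 32.0 and 33.5 (1.52 ± 0.23). None of the 3 overlapped between the groups, and DESeq2 gave them adjusted p-values of 8.77e-08, 2.98e-08 and 3.07e-05. The 12 members that met the criterion were 2 of the snoRNP core (Nop56 and Nop10), 9 of the small subunit (Utp3, Utp11, Utp14b, Utp23, Nop14, Nol11, Imp3, Imp4 and Abt1) and Nop16. The core proteins gave -0.076 ± 0.46 for Fbl, 0.79 ± 0.20 for Nop56, 0.57 ± 0.27 for Nop58, 0.65 ± 0.21 for Nop10 and 1.46 ± 0.77 for Rrp9. The processome members gave 0.66 ± 0.27 for Utp4, 0.61 ± 0.32 for Utp14a, -0.53 ± 0.49 for Utp20, 1.33 ± 0.47 for Nop14, 0.70 ± 0.76 for Noc4l and 0.012 ± 1.41 for Nol6. Utp20 was the one below 0 among these. Further small-subunit values were 1.15 ± 0.27 for Imp3, 1.28 ± 0.32 for Imp4, 0.68 ± 0.95 for Rrp12 and 1.28 ± 0.79 for Bms1. The large-subunit members gave 1.05 ± 0.46 for Nop2, 0.45 ± 0.78 for Noc2l, 1.04 ± 0.66 for Rrs1, 1.26 ± 0.56 for Nip7, 0.58 ± 0.30 for Mrto4, 2.94 ± 1.29 for Bop1 and 0.23 ± 0.76 for Pes1, positive in all 7. Ncl and Npm1 gave 0.37 ± 0.21 and 0.11 ± 0.15.

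Against late G+N, the G+N-L+A embryos showed members on both sides of 0. EdgeR called 0 members (0% of all genes), and DESeq2 called 0. An unadjusted p under 0.05 (edgeR) was reached by 2 of 49 members and by 1670 of 19613 genes. The median was -0.045, against 0.0074 over all genes, with 22 members above 0 (50.4% of all genes) and 27 below (49.6%). Utp4 had 44.3 and 50.5 CPM in G+N-L+A and 74.6 and 93.9 CPM in G+N (-0.74 ± 0.26), and Nol12, a nucleolar RNA-binding protein, had 24.1 and 20.1 CPM against 36.7 and 54.4 CPM (-0.95 ± 0.34). Both met the looser criterion as lower, as did 4.1% of all genes, and both were below G+N in each library. No member met it as higher (4.41% of all genes). The sign of the members' median turned with single libraries. It was 0.18 without G+N-L+A library 1 and -0.18 without its library 2, against -0.12 and -0.11 over all genes. It was -0.22 without late G+N library 1 and 0.046 without its library 2, against 0.083 and 0.11 over all genes. The snoRNP core gave 0.076 ± 0.49 for Fbl, -0.26 ± 0.22 for Nop56, -0.46 ± 0.31 for Nop58, 0.069 ± 0.28 for Nop10 and 0.91 ± 0.37 for Rrp9. The small-subunit factors gave -0.041 ± 0.27 for Utp14a, 0.79 ± 0.37 for Utp14b, -0.045 ± 0.77 for Utp20, -0.58 ± 0.36 for Nop14, 0.58 ± 0.44 for Noc4l and -0.57 ± 1.32 for Nol6. Both signs occurred in each class. Further small-subunit values were -0.38 ± 0.29 for Imp3, 0.46 ± 0.28 for Imp4, -0.038 ± 0.51 for Rrp12, 0.26 ± 0.24 for Abt1 and 1.04 ± 0.69 for Bms1. The large-subunit factors gave 0.0073 ± 0.53 for Nop2, -0.60 ± 0.72 for Noc2l, -0.21 ± 0.33 for Nop16, -0.33 ± 0.55 for Rrs1, -0.31 ± 0.53 for Nip7, 0.44 ± 0.36 for Mrto4, -0.53 ± 1.0 for Bop1 and -0.29 ± 0.51 for Pes1, and Ncl and Npm1 gave 0.25 ± 0.20 and -0.35 ± 0.18. With SEs of this size, a difference that misses the threshold does not show that Lac-CoA embryos reached the G+N level.

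H3K18R was compared with the libraries labelled WT, as the study's comparison for H3 that cannot be modified at lysine 18. H3c1 counts were high in H3K18R alone, and other H3 genes were not examined. The study injected H3.1, H3.2 and H3.3 mRNAs and reports overexpression of wild-type and mutant H3 by immunofluorescence. Whether the WT libraries hold injected H3 mRNA of another sequence was not tested. The lysine change and the presence of injected H3 mRNA therefore cannot be told apart from H3c1 alone. Most members were lower in H3K18R, with a median log2 fold change of -0.58 over 49 members, against 0.028 over all 17704 genes. EdgeR called 0 members lower and 0 higher (0% and 0.00565% of all genes), and DESeq2 called 2 lower, Nip7 and Abt1, against 0.175% of all genes. An unadjusted p under 0.05 (edgeR) was reached by 5 members and by 1141 of the 17704 genes. By the looser criterion 5 members were lower (2.67% of all genes) and none higher (3.77%). The log2 fold change was below 0 for 47 members (48.6% of all genes), and both H3K18R libraries lay below both WT libraries in 30 (19.5%). The size of the difference rested on the library: without H3K18R library 1 the members' median was -1.06, against -0.057 over all genes. Without H3K18R library 2 it was -0.21, against -0.096 over all genes. It was -0.57 without either WT library, against 0.17 over all genes without WT library 1 and 0.16 without WT library 2. H3K18R library 2, with the lower member levels, also had the higher sum of oocyte markers (9026 CPM, against 4179.6 in library 1 and 3825 to 3865 in WT), and their part in the result was not tested. It had 83390 counts of H3c1, against 43643 in library 1.

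Nip7 had 243 and 173 CPM in H3K18R and 510.1 and 585 CPM in WT (-1.39 ± 0.30, edgeR unadjusted p = 0.00418, adjusted p = 0.734, DESeq2 adjusted p = 0.00532). Abt1 had 106 and 73.9 CPM against 222 and 221 CPM (-1.30 ± 0.30, edgeR unadjusted p = 0.00619, adjusted p = 0.734, DESeq2 adjusted p = 0.0255). Nol7 had 149 and 107 CPM against 279 and 209 CPM (-0.92 ± 0.32). In these 3 genes both H3K18R libraries were below both WT libraries. Nop58 and Nol9, a polynucleotide kinase of pre-rRNA processing, completed the 5, at -0.85 ± 0.34 and -1.07 ± 0.43. The rest of the snoRNP core gave -1.07 ± 0.59 for Fbl, -0.34 ± 0.32 for Nop56, -0.35 ± 0.34 for Nop10 and -0.93 ± 0.44 for Rrp9. The small-subunit factors gave -0.67 ± 0.44 for Utp4, -0.79 ± 0.40 for Utp14a, -0.16 ± 0.42 for Utp14b, -0.14 ± 0.43 for Utp20, -0.64 ± 0.74 for Nop14, -0.16 ± 0.41 for Noc4l and -1.42 ± 0.74 for Nol6. None of these met the looser criterion. Further small-subunit values were -0.42 ± 0.40 for Imp3, -0.46 ± 0.36 for Imp4, -1.06 ± 0.60 for Rrp12 and -1.23 ± 0.53 for Bms1. The large-subunit factors gave -0.58 ± 0.51 for Nop2, -0.35 ± 0.61 for Noc2l, -0.46 ± 0.33 for Nop16, -0.78 ± 0.53 for Rrs1, -0.67 ± 0.30 for Mrto4, -0.94 ± 0.56 for Bop1 and -0.53 ± 0.50 for Pes1, all below 0. Ncl gave -0.60 ± 0.39 and Npm1 -0.32 ± 0.27, and Nol8 and Utp25 were the members above 0, at 0.11 ± 0.40 and 0.034 ± 0.67.

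Sorted by late minus early G+N, from libraries outside the H3K18R comparison, the members were mostly below 0 in each class. Of the 22 that were higher in late G+N by 1 or more in log2(CPM + 1), 22 were below 0 in H3K18R against WT, with a median of -0.62 (62.9% and -0.23 for 4465 genes). Of the 23 within 1, 21 were below 0, with a median of -0.53 (45.9% and 0.090 for 10461 genes). The 4 that were lower in late G+N (Bms1, Noc4l, Nol10 and Rrp1b) were below 0 also, with a median of -0.46 from few members (36.0% and 0.31 for 2778 genes).

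WT embryos had higher levels than late G+N embryos for most members. At an adjusted p under 0.05 (edgeR), 4 of 49 members were higher and 0 lower, against 1.94% and 2.68% of all genes, and DESeq2 called 30 higher and 0 lower, against 10.6% and 11.2%. Under the looser criterion 32 were higher (12.4% of all genes) and 0 lower (15.6%). The log2 fold change was above 0 for 44 (45.7%), with a median of 1.10 against -0.16, and both WT libraries lay above both G+N libraries in 40 (28%). Without G+N library 1 or either WT library, edgeR's adjusted calls were lost for members and for all genes alike. The members' median was 1.04 and 1.23 without G+N library 1 and 2, against -0.011 and -0.013 over all genes. It was 1.09 and 1.16 without WT library 1 and 2, against -0.42 and -0.44 over all genes. Inhibitor culture and mRNA injection (where WT embryos had any) differ together between these groups and cannot be told apart. Whether the groups came from the same experiment is not stated. The oocyte markers differed too (3825 to 3865 CPM in WT, 14475 to 14991 CPM in late G+N), and their part in the result was not tested.

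Nip7 had 510.1 and 585 CPM in WT and 89.6 and 133 CPM in late G+N (2.27 ± 0.25, adjusted p = 0.0413, edgeR). Utp11 had 381 and 493 CPM against 123 and 153 CPM (1.64 ± 0.23, adjusted p = 0.0413, edgeR). Utp3, the counterpart of yeast Sas10, had 90.7 and 78.3 CPM against 28.2 and 30.9 CPM (1.48 ± 0.25, adjusted p = 0.0455, edgeR). Abt1 passed as the fourth (1.11 ± 0.20, adjusted p = 0.0476, edgeR). In all 4 the libraries of the groups did not overlap. The snoRNP core gave 1.33 ± 0.40 for Fbl, 0.54 ± 0.20 for Nop56, 1.03 ± 0.22 for Nop58, 1.40 ± 0.26 for Nop10 and 1.12 ± 0.38 for Rrp9, and all 5 met the looser criterion. The small-subunit factors gave 1.10 ± 0.25 for Utp4, 1.02 ± 0.26 for Utp14a, 1.24 ± 0.35 for Utp14b, 0.88 ± 0.75 for Utp20, -0.099 ± 0.63 for Nop14, 1.22 ± 0.39 for Noc4l and 2.35 ± 0.75 for Nol6. Nop14 was the one below 0 among these. Further small-subunit values were 1.38 ± 0.26 for Imp3, 0.71 ± 0.28 for Imp4, 0.99 ± 0.49 for Rrp12 and 1.02 ± 0.54 for Bms1. The large-subunit factors gave 1.34 ± 0.49 for Nop2, 0.87 ± 0.63 for Noc2l, 1.73 ± 0.32 for Nop16, 1.14 ± 0.32 for Rrs1, 1.42 ± 0.33 for Mrto4, 1.29 ± 0.62 for Bop1 and -0.11 ± 0.41 for Pes1. Ncl and Npm1 gave 0.36 ± 0.23 and 0.52 ± 0.17.

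Other genes of ribosome production, from lists that leave out the members, were read beside them. They comprise 38 further small-subunit factors, 46 further large-subunit factors, 13 snoRNP and assembly factors, 15 genes of RNA polymerase I transcription (14 found) and 14 of the nuclear RNA exosome. In late against early G+N, the adjusted threshold was passed upward and downward by 8 and 1 of 38 small-subunit factors, 11 and 4 of 46 large-subunit factors, 6 and 1 of 13 snoRNP and assembly factors, 6 and 0 of 14 polymerase I genes and 2 and 2 of 13 exosome genes tested (edgeR), against 8.18% and 5.47% of all genes. Nhp2, a box H/ACA core protein, rose by 3.78 ± 0.27, Znhit3, a snoRNP assembly factor, by 5.53 ± 0.41, and Polr1c, a subunit that polymerases I and III share, by 4.03 ± 0.31 on the log2 scale. Their medians were 1.42, 0.62, 1.31, 2.23 and -0.42, in the order of the lists. The first 4 medians were above 0 and that of the exosome was below 0. In late against early G+N-L, the counts up and down were 2 and 2 of 38, 3 and 7 of 44, 4 and 2 of 13, 3 and 1 of 13 and 1 and 3 of 13, against 5.97% and 5.87% of all genes.

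In late G+N-L against G+N, no gene of these lists passed the adjusted threshold, and the looser criterion was met as lower by 19 of 38, 24 of 46, 7 of 13, 7 of 13 and 2 of 13 in the same order, against 7.63% of all genes. The medians were -0.92, -1.12, -0.95, -0.79 and -0.66, beside -0.81 for the 49 members. Ebna1bp2, a pre-60S factor, gave -1.83 ± 0.23, Znhit6, a box C/D assembly factor, -2.54 ± 0.38, and Dkc1, the pseudouridine synthase of box H/ACA snoRNPs, -1.42 ± 0.28. In G+N-L+A against G+N-L, 16 of 38, 14 of 46, 6 of 13, 4 of 13 and 3 of 13 met the criterion as higher, against 6.89% of all genes, and Ebna1bp2, Znhit6 and Dkc1 gave 1.59 ± 0.25, 1.80 ± 0.36 and 1.13 ± 0.18. In G+N-L+A against G+N the medians lay between -0.25 (large-subunit factors) and 0.15 (exosome). In H3K18R against WT, 3 of 38, 5 of 46, 0 of 13, 2 of 14 and 1 of 13 met it as lower, against 2.67% of all genes, and the medians lay between -0.65 (large-subunit factors) and -0.44 (exosome). In WT against late G+N, 4 of 38, 8 of 46, 3 of 13, 3 of 14 and 2 of 13 were higher at the adjusted threshold, against 1.94% of all genes. Mphosph6, an exosome cofactor, was the gene of these lists that was lower there, with a log2 fold change of -2.15 ± 0.18 (adjusted p = 0.0413, edgeR). In early G+N-L against G+N and in the interaction no gene of the lists passed, and the medians lay between -0.22 and 0.078 and between -0.95 and -0.37.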

How the data were processed

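RNA-seq libraries of 5 mouse 2-cell embryos each were read from 1 table of raw counts, deposited by the authors for 56923 genes without normalization. Per the study's methods and the submitters' processing notes, the authors used FastQC for quality control and Trim Galore for trimming, HISAT2 for alignment to mm39 and featureCounts for counting per gene. Versions and the strand setting are not given in the sources used here. Groups follow the sample titles. Replicates differed by more than counting noise (chi-square per degree of freedom 51.9 to 216), so none was counted as a duplicate. The authors' own comparison tables were not used.

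Fits used the 4 libraries of a comparison (8 for the interaction) and edgeR 4.0.16 in R 4.3.3: default filter on low counts, TMM, quasi-likelihood test, two-sided, Benjamini-Hochberg adjustment over all genes tested, threshold 0.05. Fold changes use edgeR's prior count of 0.125. Levels are CPM on TMM library sizes of all 14 libraries, with a pseudocount of 1 where logged. DESeq2 1.42.0, other scalings and filters, a fit of all 14 libraries, a replicate block and leaving out each library were alternatives. The script was tested on simulated counts.

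The members and lists were chosen with earlier results of these data known. Named were a fixed panel of 27 members and, per comparison, up to 3 members per direction with the smallest unadjusted p among those under 0.05 and beyond 0.5 in log2. Genes named outside this rule were chosen after their values were seen. Of the 49 gene identifiers, all were found in GENCODE vM39 (GRCm39), 2 with the same version. Protein sequences of Utp14a and Utp14b were not used here.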

Additional observations from a re-analysis of the deposited data

How the results depend on the processing

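The numbers of members past an adjusted p of 0.05 depended on the tool and on low-count filters. DESeq2 called 13 members in late G+N-L against G+N, where edgeR called 0, 2 in H3K18R against WT (0), 9 in G+N-L+A against G+N-L (0), 23 in late against early G+N (13), 23 in late against early G+N-L (12), 30 in WT against late G+N (4) and 1 in the interaction (0). The shares of all genes that DESeq2 called are given with each comparison above. Without a filter on low counts, edgeR called 7 lower in late G+N-L against G+N (0.871% of all genes). In late against early G+N it called 17 higher and 4 lower (9.86% and 7.39%). In WT against late G+N it called 21 higher (5.75%), and in the interaction 1 lower (0.715%). With at least 10 counts in every library it called 3 lower in late G+N-L against G+N (0.731% of all genes). In WT against late G+N this filter gave 21 higher (11.2%). Library totals gave 8 higher in WT against late G+N (2.73% of all genes). The cause of these shifts was not tested.

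Leaving out 1 library at a time gave 3 to 14 calls in late against early G+N, 1 to 10 in late against early G+N-L, 0 to 4 in WT against late G+N and 0 to 1 in the interaction, and 0 in each of the other comparisons. With 1 library left in a group, that library was assumed to vary like the other group. The replicate numbers carried no stated pairing, and the deviations of same-numbered libraries correlated by -0.0478 to 0.0112. With the replicate block, edgeR called 8 members higher and 1 lower in late against early G+N (5.59% and 3.87% of all genes). In late against early G+N-L it called 5 higher and 4 lower (3.76% and 3.72%). In WT against late G+N it called 6 higher (1.93%), and it called 0 members in each other comparison and in the interaction.

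On library totals the summed level of the members was 3032 CPM in early G+N, 2828 in early G+N-L, 2753 in late G+N-L, 4228 in G+N-L+A, 4299 in late G+N, 6008 in H3K18R and 8486 in WT. Searched on the given strand alone, the ETS motif was in 14.9% of member windows, 4.77% of all windows and 8.19% of those of tested genes, and the GC box in 42.6%, 23.4% and 35.9%. The panel and the members named by the rule were followed over 11 alternatives per comparison, and over more in the interaction with its 8 libraries. Among them, values of called genes stayed called in 189 cases and lost the call in 58, with none reversed. Of 2617 values of those that were not called, 133 lay on the other side of 0.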
